A study of Cryptomeria japonica with 72 samples.

Results

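In cuttings of the conifer Cryptomeria japonica, 150 array targets had higher mean signals in the needles at 3 and 6 wk post-insertion (wpi) than at excision and from 1 day to 1 wpi. They were the 150 with the highest scores among the 12644 targets whose every spot was well above background on all 24 needle arrays, of 19304 targets on the array. The score was the lower of the needle group means at 3 and 6 wpi minus the highest of those at 0 h post-excision (hpe), 1 day post-insertion (dpi), 3 dpi and 1 wpi, on the log2 scale. The members were thus chosen by their needle signals in these 6 groups, which are described without a test. The tests below compare groups that the score left out. Tests with needle groups took each target's spread from fits that also held the arrays used by the score. At the base of the stem, 38 of 64 members tested were lower at 6 wpi than at 0 hpe, where 10.7% of all targets were lower and 16.8% higher. With slide as a fixed block 2 of the 64 were lower, where 3.61% of all targets were called in either direction. The median difference with the block was -1.17 for the 64 and 0.19 for all targets. The median of the 150 at the base was low from 3 hpi on, with -1.44 at 1 wpi and -1.35 at 3 wpi.

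A shoot that lengthens and hardens lays down secondary cell walls, thick layers made of cellulose, hemicellulose and lignin, in its water-conducting and supporting cells. In Arabidopsis the cellulose of these layers is made by a complex of the synthases CESA4, IRX1 and IRX3. Receptor-like kinases, another large plant family, sit in the cell membrane and pass on signals from outside the cell.

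All cuttings came from the 18-year-old trees of 1 clone, Tsukuba 1, grown in a field, and received no treatment other than excision and insertion into soil in an unregulated greenhouse. The groups were needles, base and middle at 0 hpe, 0 h post-insertion (hpi), 3 hpi, 1 dpi, 3 dpi, 1 wpi, 3 wpi and 6 wpi, with 3 cuttings each, which gave 24 groups and 72 arrays of Cy3-labelled cRNA. The base was the buried end of the stem and, at 6 wpi, carried roots, the middle was stem above ground, and the needle samples were pieces of shoot with their needles, so they held shoot axis as well as leaf. No shoots left uncut on the donor trees were sampled, so the time since excision, the season and the age of the shoot cannot be told apart. Between 66.0 and 86.9% of spots per array were well above background. The base and the needles shared slides 1 to 6 and the middle lay on slides 7 to 9, so slide and part cannot be told apart for the middle.

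Values are log2 signals from which the log2 of each array's 75th percentile was subtracted, so that 0 equals this percentile, and the mean of the 3 arrays stands for a group. The score ran between 0.96 and 2.63, with a median of 1.25. Just inside the limit were reCj19554 (score 0.962), a hit to the nucleotide transporter NTT1, and reCj20729 (0.958), a Rossmann-fold protein. Just outside it were reCj13956 (0.957) and reCj21501 (0.956), so the limit fell at no gap. An Arabidopsis hit with an E-value below 1e-05 could be given to 40 of the 150 targets and to 4684 of the 19304. The annotation available here was incomplete and covered 5261 of the 19304 targets. The counts per gene list below cover annotated targets only. The other 110 are called by their identifiers.

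In needles the median of the 150 targets per array averaged -1.31 ± 0.66 at 0 hpe, -1.40 ± 0.27 at 0 hpi and -1.57 ± 1.03 at 3 hpi (SD, n = 3 each, also below). It was lowest at 1 dpi, at -1.74 ± 0.08, and had -1.54 ± 0.25 at 3 dpi and -1.23 ± 0.41 at 1 wpi. The value for 3 wpi was 0.53 ± 0.37 and that for 6 wpi 0.65 ± 0.09. The median of all 12644 targets stayed between -0.60 and -0.56 over these groups. The score itself set the step between 1 and 3 wpi and favoured targets high at both late times. The median changed little between 3 and 6 wpi. Of the 150, 94 were higher at 6 wpi than at 3 wpi, with a median difference of 0.13. All 6 arrays of 3 and 6 wpi lay above all 12 arrays of the 4 earlier groups of the score for 116 of the 150 targets, as they did for 5.95% of the 12644. These arrays chose the members, so a higher share among the 150 follows from the choice and is a description. The highest of the 4 earlier means, against which the score was taken, was that of 1 wpi for 76 members, 0 hpe for 60, 3 dpi for 9 and 1 dpi for 5. Needle arrays differed before the step. The array of 0 hpe replicate 2 had a median of -0.61, against -1.39 and -1.93 in the other two, and 3 hpi replicate 1 had -2.75, against -0.89 and -1.07.

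**Figure D1:**
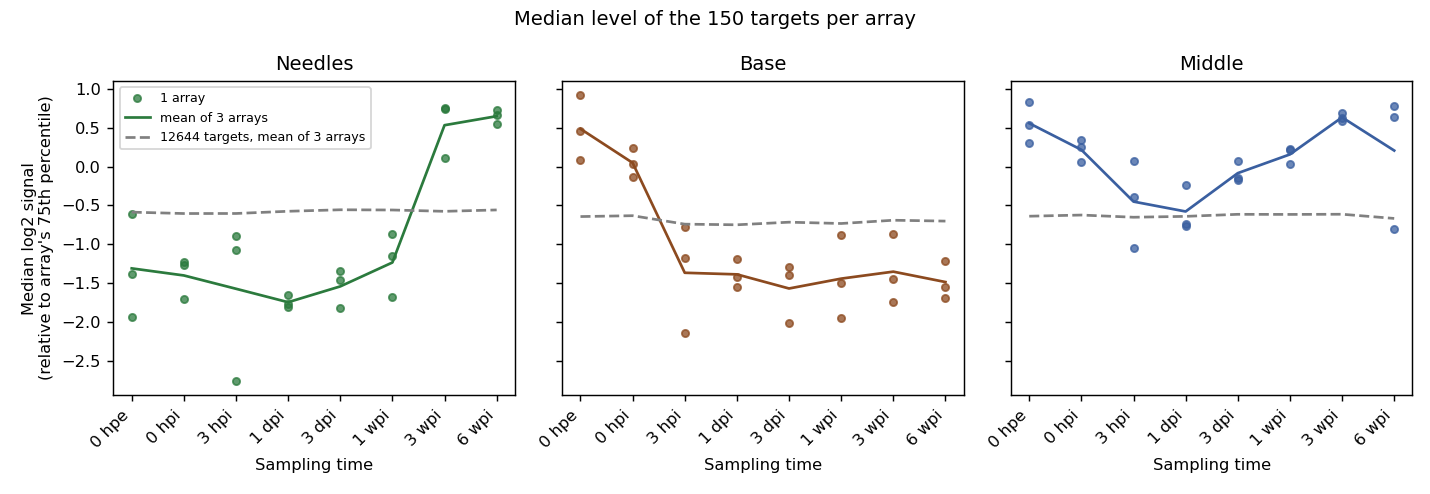
Median log2 signal of the 150 targets (y axis, relative to each array's 75th percentile) by sampling time (x axis) in needles, base and middle. Each point is 1 array, solid lines join the means of 3 arrays and dashed lines give the 12644 targets, which stay near -0.6, while the needles end at 0.65, the base at -1.48 and the middle at 0.21.

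The needle arrays at 3 and 6 wpi lay on slides 1 and 4, and those at 0 hpe on slides 5 and 6, so they share no slide. Slide 1 also held a needle array of 1 wpi. On that slide all 150 targets were higher on both the 3 wpi and the 6 wpi array than on the 1 wpi array, and the lower of both differences had a median of 1.26. These arrays took part in the choice, so the value is a description. With slide effects removed from the needle values, 58 of the 150 were still among the 150 highest scores.

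Needle arrays of 0 and 3 hpi did not enter the score. At 0 hpi only reCj24804 had a group mean at or above its lower late mean, and at 3 hpi none of the 150 had. reCj24804 (rank 6, no annotated hit) had 2.06, 2.43 and 1.19 in needles at 0 hpi. It had 1.97, 2.13 and 1.38 at 3 wpi, against -0.61, 1.15 and -2.50 at 0 hpe. It was thus high at insertion, low for days and high again late.

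The largest step was in reCj26297 (rank 1, no annotated hit). Its needle values were 2.20, 3.12 and 1.68 at 3 wpi and 2.11, 2.59 and 2.70 at 6 wpi, against -0.35, 1.44 and -1.97 at 0 hpe. The groups did not overlap, but the 0 hpe arrays spread widely. In the middle it had -4.38, -8.46 and -2.49 at 6 wpi, against -0.01, 1.42 and 0.23 at 0 hpe, and 1 of these 6 wpi arrays was not well above background. The next targets were reCj32632, reCj28027 and reCj24310, with scores of 2.43, 2.40 and 2.38 and no annotated hit.

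reCj19312, the fifth by score, is a hit to a leucine-rich repeat protein kinase. It had 3.23, 3.10 and 3.08 in needles at 3 wpi and 3.60, 4.04 and 3.86 at 6 wpi, against 1.16, 3.32 and -2.00 at 0 hpe. Late arrays were close to each other, and 1 of the 0 hpe arrays reached their level. reCj28744 (rank 7) is a hit to an auxin-responsive family protein and had -1.19, 0.20 and -1.14 at 3 wpi, against -2.56, -3.61 and -2.51 at 0 hpe. The rest of the 10 highest scores, reCj29674, reCj10365 and reCj12306, carry no annotated hit.

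Cell wall enzymes were among the members. 5 of the 100 annotated cell wall targets detected in needles were among the 150, although the list as a whole had a median of -0.32 for the lower late mean minus 0 hpe. Lists of annotation words were written with results of these data known. The 5 were the secondary wall cellulose synthases CESA4 (reCj18473), IRX3 (reCj29188) and IRX1 (reCj18719), the fasciclin-like arabinogalactan protein FLA17 (reCj21169) and the xyloglucan-modifying enzyme XTH5 (reCj29201). IRX1 and FLA17 are named here after their values were seen.

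CESA4 had 2.04, 2.57 and 1.61 in needles at 3 wpi and 1.46, 1.71 and 2.52 at 6 wpi, against 0.96, 0.32 and 1.11 at 0 hpe. IRX1 had 2.75, 3.48 and 2.43 at 3 wpi and 2.35, 2.66 and 3.21 at 6 wpi, against 1.70, 1.57 and 1.84 at 0 hpe. In both, every late array lay above every 0 hpe array. IRX3 had 0.24, -0.45 and -0.31 at 3 wpi and -0.14, 0.19 and 0.36 at 6 wpi, against -2.21, -1.33 and -3.53 at 0 hpe, which again did not overlap. The group means of these synthases at 0 hpi were 0.88 for CESA4, 1.69 for IRX1 and -2.92 for IRX3. Another hit to CESA4, reCj28921, was not a member and changed less. It averaged -2.82 ± 0.27 in needles at 3 wpi and -2.95 ± 0.20 at 6 wpi, against -3.14 ± 0.09 at 0 hpe (SD, n = 3).

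Further members act on wall polymers or lignin-related compounds. CAD9 (reCj13271), a hit to a cinnamyl alcohol dehydrogenase, the enzyme family that makes lignin monomers, averaged 3.30 ± 0.45 in needles at 3 wpi and 3.34 ± 0.17 at 6 wpi, against 1.63 ± 1.08 at 0 hpe (SD, n = 3). It was the only one of the 37 detected phenylpropanoid, flavonoid and lignin targets among the 150. PRR1 (reCj26962), which in Arabidopsis reduces the lignan pinoresinol, averaged 0.56 ± 0.73 at 3 wpi and -0.10 ± 0.67 at 6 wpi, against -1.19 ± 0.54 at 0 hpe. The chitinase-like protein POM1 (reCj26383), needed for normal cellulose in Arabidopsis, was the only member of the 102 detected defence targets, and averaged 4.04 and 3.82, against 2.73 at 0 hpe. The glycosyltransferases were reCj22552 (family 61) and reCj26851 (a UDP-glycosyltransferase), 2 of 40 detected.

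Of 11 annotated targets on a list for lignifying xylem, 3 were members, the synthases above. Both late needle means were above 0 hpe for 8 of the 11, these 3 and 5 others, and the list had a median of 0.37 for the lower late mean minus 0 hpe. The summed linear signal of the 11 was 14.2 to 25.6 in needles at 3 wpi and 12.5 to 20.9 at 6 wpi, against 13.1 to 20.4 at 0 hpe, so the groups overlapped, and all 11 were well above background. The laccase reCj21077, a hit to IRX12 and the brightest of the 11 in needles at 0 hpe, had -0.77 ± 0.73 at 6 wpi, against 3.15 ± 0.51 at 0 hpe. Of the hits to FLA11, reCj29570 had -1.82 ± 0.45 at 6 wpi, against -2.69 ± 0.30 at 0 hpe, and reCj26880 had -0.64 ± 0.72, against -0.91 ± 0.66. The summed signal of 17 markers of dividing tissue was 5.27 to 6.88 in needles at 6 wpi, against 9.80 to 15.7 at 0 hpe, and that of 6 photosynthetic markers 264 to 290, against 239 to 241. Their part in the needle pattern was not tested. In bulk tissue, fewer cells of a type and less RNA per cell cannot be told apart.

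Receptor and other protein kinases gave 6 of 270 detected targets. They were the leucine-rich repeat kinases reCj19312, reCj20318 (a hit to FLS2, the flagellin receptor of Arabidopsis) and reCj21026, the cysteine-rich receptor-like kinase CRK10 (reCj19792), the lectin kinase reCj20495 and PERK8 (reCj26927). reCj20495 reached 4.49, 4.10 and 4.12 in needles at 3 wpi and 4.66, 4.89 and 4.85 at 6 wpi, against 2.28, 4.09 and 1.20 at 0 hpe, so that 1 of the 0 hpe arrays came close to the late level. At the base it had -0.91, 0.88 and -1.58 at 6 wpi, against 4.32, 4.86 and 2.98 at 0 hpe. In needles CRK10 had a mean of 3.56 at 3 wpi and 4.02 at 6 wpi, against 1.90 at 0 hpe, and the FLS2 hit had 0.58 and 1.36, against -1.49. 2 further members of known families were missed by the words of the lists and were named after their values were seen. HSL1 (reCj18804), a hit to a receptor-like kinase related to HAESA, averaged -1.99 at 3 wpi and -1.31 at 6 wpi in needles, against -3.46 at 0 hpe. NF-YA7 (reCj23355), a subunit of a CCAAT-binding transcription factor, averaged -0.55 and 0.29, against -1.61.

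Protein turnover gave 4 of 210, the aspartyl proteases reCj22540 and reCj21462, the subtilase UNE17 (reCj11740) and the peptidase reCj19487. reCj21462 had 3.15, 3.12 and 3.16 in needles at 3 wpi and 2.72, 3.48 and 3.03 at 6 wpi, against 1.56, 2.32 and 1.30 at 0 hpe, without overlap.

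4 targets were hits to galactinol synthases, which start the synthesis of raffinose-type sugars, and were chosen for description with their values known. reCj02826 (GolS4) averaged -1.20 at 3 wpi and -0.81 at 6 wpi in needles, against -2.65 at 0 hpe. For reCj02828 (GolS4) the means were 0.05 and 0.39, against -1.27. The GolS1 hits were reCj13751, at -0.52 and -0.22 against -1.99, and reCj13750, at -1.20 and -0.90 against -2.59. Targets with the same hit may be copies or parts of 1 gene whose signals cannot be told apart here. Transporters gave 2 of 186 detected, ABCC8 (reCj17897) and NTT1, hormone-related words 1 of 45, and P450 and other oxidoreductases 1 of 157, the Rossmann-fold protein above. The words for photosynthesis (17 detected), terpenoid (9), transcription factor (193), lipid and cuticle (98), and stress and redox (50) found none.

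**Figure D2:**
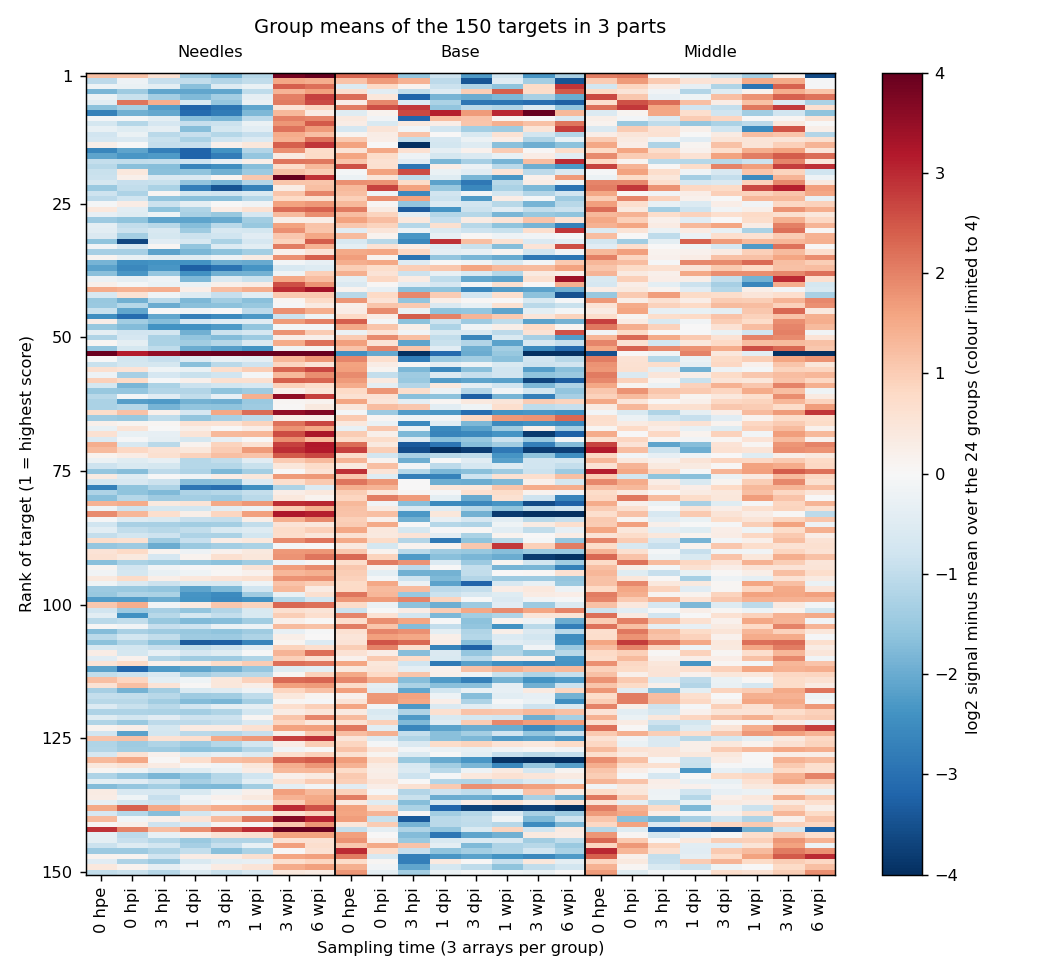
Group means of the 150 targets (rows, by rank of score) in needles, base and middle at 8 sampling times (columns). Colour is the log2 signal minus the mean over the 24 groups, limited to 4 in size, and most rows turn red in needles at 3 and 6 wpi and blue at the base after 0 hpi.

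When the cuttings were inserted, most of the members tested were lower in needles than at the base. At 0 hpi, a needle group that the score did not use, 44 of the 61 members on list 1 were lower in needles than at the base and none was higher, where 13.8% of all 9175 targets tested were lower and 9.06% higher. Needles at 0 hpi had a median near that at 0 hpe (-1.40 against -1.31), on the same slides. Members were chosen for early needle signals below the late ones, so this result is not independent of the choice. List 1 held the targets with every spot well above background and without a non-uniformity flag on all arrays of the fit. Their mean signal was above 10 on each of these arrays. All 150 members passed the background limit in needles by their choice. List 1 therefore kept mainly members bright on every stem array, which favours lower needle values in this comparison. Targets were called in limma's test where the Benjamini-Hochberg adjusted p was below 0.05 and the group means differed by 1 or more (log2). The median difference was -2.25 for the 61 and -0.04 for the 9175, but -1.19 over all 150 members and -0.24 over all 19304 targets. Without the filter, which lets in signals below background, 65 of all 150 were lower and 9 higher, against 17% and 10.7% of the 19304.

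PRR1 had -0.11, -0.63 and -1.50 in needles at 0 hpi, against 3.40, 2.54 and 3.00 at the base. The difference was -3.73 ± 0.93 (limma adjusted p = 0.000843), where ± is the SE, as for all differences tested. reCj26323, which carries no usable hit, had -3.25, -3.18 and -2.92 in needles, against 1.21, 0.21 and 1.01 at the base (-3.93 ± 0.54, limma adjusted p = 6.1e-08). In both, needles and base did not overlap. HSL1 differed by -2.97 ± 0.41, CAD9 by -2.85 ± 0.37, IRX1 by -2.87 ± 0.83, CESA4 by -2.83 ± 0.79 and UNE17 by -2.77 ± 0.56, all called and without overlap. The aspartyl protease reCj21462 was an exception, at 1.57 in needles and 1.13 at the base (0.44 ± 0.54, adjusted p = 0.517, limma). The summed signal of the 11 xylem markers was 12.5 to 18.9 in needles at 0 hpi, against 63.7 to 74.4 at the base, and its part in this difference was not tested. Within slide 5 the median needle value of the 150 minus that at the base was -1.26, and within slide 6 it was -0.98.

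By 6 wpi the levels of needles and base had crossed. The needle mean was above the base mean for 17 of the 150 targets at 0 hpe and for 124 at 6 wpi. The median difference between needles and base was -1.63 at 0 hpe and 2.00 at 6 wpi, where all 12644 targets had 0.01 and -0.13. Against the middle it was -1.79 at 0 hpe, -0.12 at 3 wpi and 0.62 at 6 wpi. Needles thus ended near the level of the stem at excision, at a median of 0.65 in needles at 6 wpi, against 0.48 at 0 hpe at the base and 0.56 at 0 hpe in the middle. Needle groups used by the score enter these values, which have no test.

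At the base the median signal of the members was low from 3 hpi on. The median of the 150 averaged 0.48 ± 0.41 at 0 hpe, 0.05 ± 0.18 at 0 hpi and -1.36 ± 0.70 at 3 hpi (SD, n = 3). The later groups lay between -1.57 ± 0.39 at 3 dpi and -1.35 ± 0.44 at 3 wpi, with -1.48 ± 0.24 at 6 wpi. At 6 wpi against 0 hpe, 38 of the 64 members on list 1 were lower and 7 higher, where 10.7% of all 9592 targets were lower and 16.8% higher. The median difference was -1.53 for the 64 and 0.16 for the 9592. At 3 wpi, 30 were lower and 4 higher, against 10.6% and 16.2% of all targets. List 1 left out 86 members with a dim or uneven spot on at least 1 stem array. All 3 base arrays were well above background for 122 of the 150 at 6 wpi, against 144 at 0 hpe. Without that filter 95 of the 150 were lower and 16 higher at 6 wpi, against 11.3% and 31.8% of the 19304, and 85 were lower and 4 higher at 3 wpi, against 11.6% and 24.2%. With spots only required to be positive and significant, 79 of 106 members were called at 6 wpi and 61 at 3 wpi, where 30.2% and 28.7% of 11909 targets were.

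The base arrays of 3 and 6 wpi shared no slide with those of 0 hpe. With slide as a fixed block, 2 of the 64 were lower and 1 higher at 6 wpi, where 3.61% of all 9592 targets were called, and 2 were lower at 3 wpi, where 4.3% were. These shares were near the background, and the median difference of the 64 was -1.17 at 6 wpi and -0.79 at 3 wpi, against -1.21 at 3 wpi without the block. A fit of the base arrays without the block, added after the result with the block was seen, gave 38 lower and 7 higher at 6 wpi. Photosynthetic markers moved with the members here. The summed signal of 6 photosystem and light-harvesting targets was 2.20 to 7.24 at the base at 6 wpi, against 139 to 244 at 0 hpe, with none at background. That of the 11 xylem markers was 2.17 to 18.6, against 11.6 to 96.5. The part of either in the result was not tested.

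The largest falls among called members were in reCj21462 and reCj30202. The aspartyl protease reCj21462 had -2.39, -1.36 and -3.90 at the base at 6 wpi, against 2.30, 3.09 and 2.02 at 0 hpe (-5.02 ± 0.60, limma adjusted p = 7.9e-08). reCj30202, without an annotated hit, had 0.11, 0.54 and -0.87, against 5.32, 5.22 and 3.76 (-4.84 ± 0.88, limma adjusted p = 3.3e-05). The leucine-rich repeat kinase reCj19312 had -1.20, -0.47 and -1.01, against 3.44, 3.86 and 2.67 (-4.22 ± 0.70). In all 3 the groups did not overlap. NF-YA7 had a mean of -1.54 at 6 wpi, against 0.91 at 0 hpe (-2.45 ± 0.37), while HSL1 had 0.69, against 0.64 (limma adjusted p = 0.918).

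Wall synthases varied among cuttings. CESA4 had 0.74, -2.78 and 1.71 at the base at 6 wpi, against 0.38, 2.97 and 4.28 at 0 hpe, and IRX1 had 1.51, -3.01 and 2.52, against 0.69, 4.29 and 5.01. Both overlapped although both were called (-2.65 ± 0.93 for CESA4 and -2.99 ± 0.98 for IRX1, limma adjusted p = 0.0161 and 0.0106). Both calls were lost without the low array of 6 wpi replicate 2, at -1.32 and -1.31, without 0 hpe replicate 2, at -2.44 and -2.51, and without 0 hpe replicate 3, at -1.79 and -2.15. At 0 hpe, replicate 1 was the lowest cutting for CESA4, IRX1, FLA17 and PRR1 in both stem parts, but the highest for IRX3, at 2.19, 1.03 and -1.41 at the base. IRX3 was outside list 1. At 0 hpi the base means were 3.71 for CESA4, against 2.54 at 0 hpe, and 4.56 for IRX1, against 3.33, while IRX3 had -1.49, against 0.61.

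None of the 7 members that rose at the base at 6 wpi had a hit in the annotation available. reCj27192 had 1.79, 2.09 and 1.65 at 6 wpi, against -1.62, -0.86 and -0.54 at 0 hpe (2.85 ± 0.32, limma adjusted p = 3.5e-08), without overlap, and was still called with slide as a block. reCj24817 had 1.49, 2.11 and 2.21, against -2.65, 1.07 and 1.36 (2.01 ± 0.66, limma adjusted p = 0.0111), and was not called, at 0.72, without the low array of 0 hpe replicate 1. reCj12306 and reCj24310, the tenth and the fourth by score, rose by 1.82 each, the call for reCj24310 being lost without 0 hpe replicate 2, at 1.47. reCj29674 rose by 1.75 ± 0.66 at 6 wpi and by 4.54 ± 0.66 at 3 wpi, but at 6 wpi its call was lost without 6 wpi replicate 3, at 1.57, or 0 hpe replicate 1, at 1.16, and its sign turned with slide as a fixed block, at -0.41.

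In the middle the median signal of the 150 was lower for days and then near its starting level. Their median averaged 0.56 ± 0.27 at 0 hpe and 0.21 ± 0.14 at 0 hpi, and was lowest at 1 dpi, at -0.58 ± 0.30 (SD, n = 3). By 1 wpi it was 0.16 ± 0.11, after that 0.63 ± 0.05 at 3 wpi, and 0.21 ± 0.87 at 6 wpi. The photosynthetic markers took a like course, with sums of 156 to 334 at 0 hpe, 51.6 to 62.8 at 1 dpi and 145 to 173 at 3 wpi, and their part was not tested. At 3 and at 6 wpi against 0 hpe limma called none of the 64 members, where 0.073% and 1.86% of all 9592 targets were called. At an unadjusted p below 0.05, 2 and 11 of the 64 passed, against 7.95% and 19.4% of all targets. Without the filter, 1 of the 150 was lower and 1 higher at 6 wpi, where 0.772% of the 19304 were lower and 1.03% higher. The median difference of the 64 was 0.08 at 3 wpi and -0.36 at 6 wpi. The array of 6 wpi replicate 2 stood apart at a median of -0.80, against 0.63 and 0.78, and without it the median difference was -0.01 and 2 members were called higher. On slide 8, which held all 0 hpe arrays of the middle and 1 of 6 wpi, the median change of the 150 was 0.10.

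Base and middle differed at both late times. At 6 wpi, 36 of 64 members were lower at the base than in the middle and 6 higher, where 9.46% of all targets were lower and 12.9% higher. At 3 wpi, 33 were lower and 3 higher, against 9.34% and 11.8%. Without the filter, 82 of the 150 were lower and 16 higher at 6 wpi, against 9.66% and 31.4% of the 19304, and 94 were lower and 4 higher at 3 wpi, against 10.5% and 22.7%. With positive and significant spots 73 of 106 members were called at 6 wpi and 70 at 3 wpi, where 25.2% and 23% of targets were. The largest negative differences were in reCj30202, with 6 wpi means of -0.07 at the base against 5.14 in the middle (-5.21 ± 0.88), and in reCj34186, which carries no usable hit, with -2.51 and 2.11 (-4.61 ± 1.02). Both galactinol synthases of the GolS4 kind were lower at the base, with differences of -2.70 ± 0.47 for reCj02826 and -2.57 ± 0.48 for reCj02828, and their base and middle arrays did not overlap. The photosynthetic markers summed to 2.20 to 7.24 at the base at 6 wpi, against 39.1 to 272 in the middle, and at 3 wpi to 2.18 to 9.33, against 145 to 173. The xylem markers summed to 10.6 to 21.4 at the base at 3 wpi, against 43.2 to 58.6 in the middle, so that both lists lay apart at that time. Their part in these differences was not tested. The difference between the changes, base minus middle at 6 wpi since 0 hpe, was itself called for 24 of the 64, 20 lower and 4 higher, where 7.56% of all targets were lower and 8.18% higher. Without the filter it was called for 46 lower and 6 higher of 150, against 6.4% and 15.1%, and with positive and significant spots for 40 of 106, against 17.4%. A fit of the 12 arrays compared alone called 7 of the 64, against 4.59% of all targets in that fit. No fixed slide block was fitted for this difference. The base arrays of 6 wpi and 0 hpe share no slide, and the middle lies on other slides. The difference between the changes therefore cannot be told apart from slide.

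**Figure D3:**
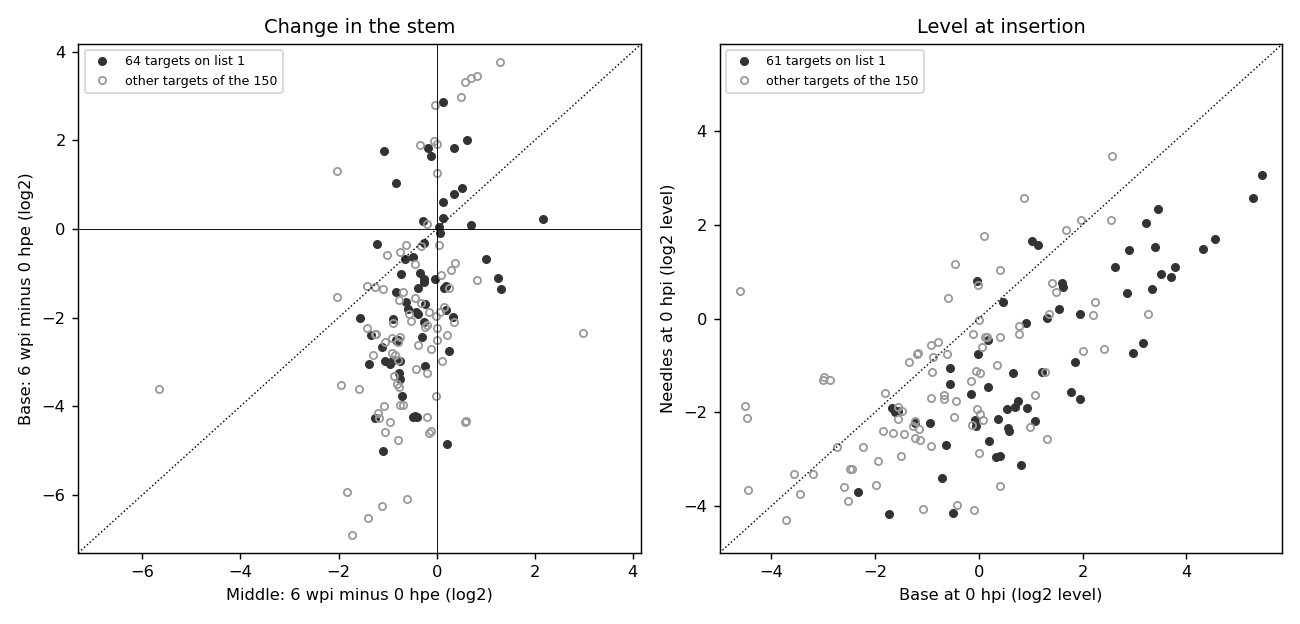
Left, change between 0 hpe and 6 wpi at the base (y axis) and in the middle (x axis) for the 150 targets, in log2 units. Right, level of the same targets at 0 hpi in needles (y axis) and at the base (x axis). Filled points are on list 1, dotted lines mark equal values, and most points lie below them, as for the 64 with a median base change of -1.53 and middle change of -0.36.

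**Figure D4:**
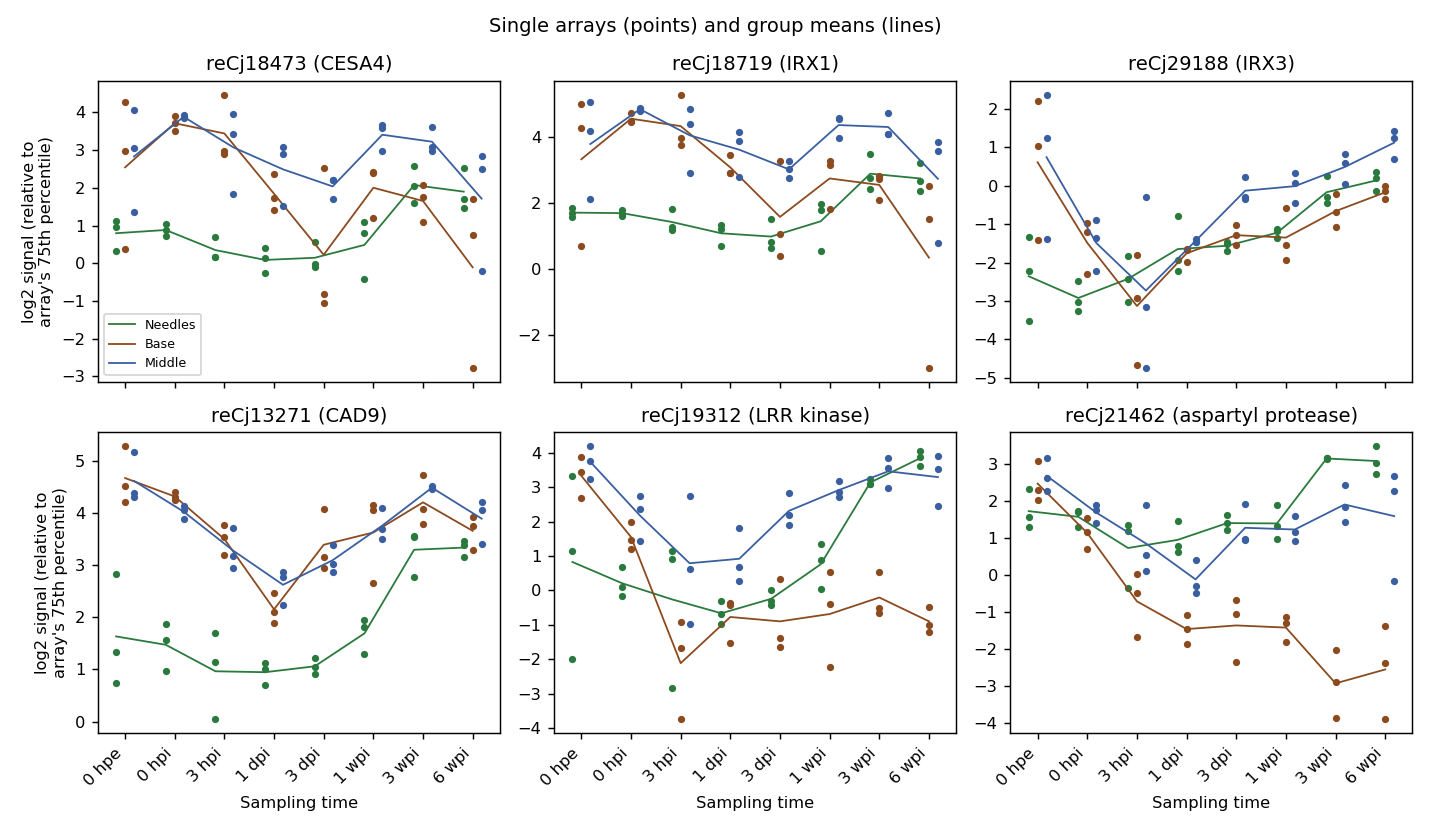
Log2 signal (y axis, relative to each array's 75th percentile) of 6 members by sampling time (x axis) in needles, base and middle. Points are single arrays and lines join group means. The kinase reCj19312 and the protease reCj21462 part at the base and in needles after 1 wpi, while CAD9 ends at 3.34 in needles and 3.66 at the base.

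The needle groups of 3 hpi and 0 hpi, which the score did not use, gave no result particular to the members. At 3 hpi against 0 hpi, 9 of 147 members on the needle list were called lower and 3 higher, where 4.36% and 4.07% of 12523 targets were, a share near the background. XTH5 had -2.57, -0.82 and -1.10 at 3 hpi, against -2.94, -4.00 and -3.77 at 0 hpi (2.07 ± 0.53, limma adjusted p = 0.00785). reCj27153 had -0.13, 1.92 and 2.55, against -1.23, -2.28 and -1.79 (3.21 ± 0.80). reCj30247 and reCj18127 fell by 2.09 and 2.06. The array of 3 hpi replicate 1 decided the balance, since 2 were lower and 13 higher without it, with a median difference of 0.26, against -0.19 with all arrays. Without 3 hpi replicate 2, 19 were lower and 3 higher, with a median of -0.49, and without 0 hpi replicate 2, 4 were lower and 3 higher.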

How the data were processed

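The authors hybridized Cy3-labelled cRNA of each sample to 1 array and deposited Agilent Feature Extraction 11.5 intensity values per spot, detrended and background-subtracted, with detection flags and without normalization between arrays. The members were chosen on the probe table that the authors deposited, with log2 values relative to each array's 75th percentile and centred by probe. Values recomputed from all spots differed from it by at most 0.00451. For the tests, the mean signal of spots without a non-uniformity flag was taken, log2 transformed and set relative to the 75th percentile.

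Differences were tested with limma 3.58.1 (lmFit, eBayes) in R 4.3.3 on all base and middle, all needle, or all 72 arrays, without a block. Files were read with the data.table package (1.17.8) and with pandas 2.3.3 and NumPy 2.4.6 in Python 3.11.15, and plots drawn with matplotlib 3.10.9. P-values were adjusted over all targets tested. The fit was also run on simulated arrays, where 200 of 9592 targets carried a log2 change of 3 for base at 6 wpi against 0 hpe, and found 196 of them, with 3 other calls. The simulated noise was independent between arrays and held no slide effect, and the change exceeded the limit of 1. It therefore cannot say how the calls reported depend on slide or hold for smaller changes. Normexp correction (offset 50) was planned on mean spot signals and used the median signals of the files. The text names the 10 highest scores, both sides of the limit, the 2 largest called rises and falls of 6 comparisons and up to 3 members of each list, and members named beyond this were chosen after their values were seen. The p-values cover the spread between cuttings of 1 clone. The members and lists were chosen with earlier results of these data known.

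Replicate numbers run from 1 to 3 in each part, and the 3 parts were cut from the same 3 cuttings per time. Deviations from the group means were compared between base and middle arrays with the same number. They correlated above 0.1 in every pair at 0 hpe (lowest r 0.748) and 6 wpi (0.185), and not at 3 wpi (-0.236). The main tests used no pairing. Pairs by number entered only as an alternative setting, which was also run at 3 wpi. Arrays with different numbers reached at most -0.115 at 0 hpe but 0.287 at 6 wpi. Pairing by number is therefore uncertain at 6 wpi.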

Additional observations from a re-analysis of the deposited data

Results flagged for a closer look

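The change between 0 hpe and 6 wpi differed between the base and the middle, by limma's test of that difference, for 24 of the 64 members tested, 20 lower and 4 higher, where 7.56% of all 9592 targets were lower and 8.18% higher. A fit of the compared arrays alone called 7 of the 64. The base arrays of both times share no slide, and no fixed slide block was fitted here. This difference cannot be told apart from slide. Among the members named, the difference (base minus middle, log2) was -3.78 for the leucine-rich repeat kinase reCj19312, -3.93 for the aspartyl protease reCj21462, -5.05 for reCj30202 and -3.86 for reCj34186. It was -2.37 for reCj02826 and -2.67 for reCj02828, both hits to galactinol synthase, and -2.14 for NF-YA7 (reCj23355). It was positive for reCj29674 (2.83), reCj27192 (2.73) and reCj12306 (2.00), which were higher at the base at 6 wpi than at 0 hpe. Single arrays decided some of these calls. Those of reCj34186, reCj29674 and reCj12306 were lost without each of several arrays, over which their values were still -2.82 or lower, 2.24 or higher and 1.62 or higher. That of reCj02826 was lost without middle 6 wpi replicate 3, at -1.89.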

How the results depend on the processing

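Without a filter on dim spots, the members called were 111 for the base at 6 wpi against 0 hpe, 89 at 3 wpi, 98 for base against middle at 6 wpi and 98 at 3 wpi, 52 for the difference between the changes, 2 for the middle at 6 wpi and 74 for needles against base. With positive and significant spots in place of spots well above background they were 79, 61, 73 and 70, and 40 for the difference between the changes. Slide as a fixed block gave 3 at the base at 6 wpi, 2 at 3 wpi and 6 for needles at 3 hpi against 0 hpi, shares near those of all targets (3.61%, 4.3% and 6.46%), and turned reCj29674 at 6 wpi to -0.41. Only the arrays compared gave 7 for the difference between the changes and 1 for needles at 3 hpi. Normexp correction gave 7 for needles at 3 hpi. For the middle at 6 wpi, with none called, normexp gave 1, quantile normalization 2 and the fit of the middle arrays alone, added after the data were seen, 2. Leaving out single arrays gave 36 to 43 at the base at 6 wpi, 26 to 34 at 3 wpi, 0 to 3 in the middle at 6 wpi and 0 at 3 wpi, 28 to 45 and 27 to 35 for base against middle at 6 and 3 wpi, 16 to 31 for the difference between the changes, 7 to 22 for needles at 3 hpi and 41 to 43 for needles against base. Of the 150 members, 74 stayed without the filter, 58 with slide effects removed, 132 when 0 and 3 hpi joined the early groups, 115 with medians and 111 to 150 without single arrays, lowest without 0 hpe replicate 2. With base and middle paired by replicate number within a time, 46 were called for base against middle at 6 wpi and 31 for the difference between the changes. Replicate number as a block across times gave 43 for the base and 2 for the middle at 6 wpi. There it joins different cuttings, so it is no pairing. Of 1608 alternative values of called named members, 1404 kept their call, 203 lost it and 1 turned. The settings differed widely in this. With slide as a fixed block 25 kept their call, 37 lost it and 1 turned. With only the arrays compared, 72 kept it and 36 lost it. The cause of these shifts was not tested. 3 arrays a group limit the precision, and the dimmest members gave no stem value on list 1.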
